A study of Mus musculus with 8 samples.

Results

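Entry into mitosis, chromosome segregation and cytokinesis were followed through 40 mitotic genes in mouse epiblast-like cells (EpiLCs), among them *Pbk*, the gene of the PDZ-binding kinase. The members were taken by symbol from a table of 54281 genes. Each symbol was listed on a single row, and all 40 were among the 17272 genes tested, with at least 247 reads in any library. The question addressed was whether *Pbk* differed between *Tet1* KO and WT EpiLCs by itself or together with the other 39 genes. *Pbk* was named with earlier results of these data known, so its values describe these libraries and give no independent support.

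EpiLCs model the formative epiblast before gastrulation. Embryonic stem cell (ESC) lines were first kept in N2B27 medium with MEK and GSK3β inhibitors and LIF. They were then converted over 2 days on fibronectin in N2B27 with 1% knockout serum replacement and 12 ng/ml bFGF, without Activin A. Poly(A) RNA was sequenced from each of 4 *Tet1* KO lines, numbered KO1, KO9, KO15, KO25, and from 4 lines of WT genotype, numbered WT7, WT12, WT17, WT34. Every line was male and came from a blastocyst of the (B6 × 129S6)F1-*Tet1*tm1Koh strain. The gene was therefore disrupted in every KO cell from the start, and none of these lines was inducible or rescued. The column names also carried a suffix, b1 for KO1, KO9, WT7 and WT17 and b2 for KO15, KO25, WT12 and WT34, whose meaning the labels do not give. The title of WT12 and of WT17 differs from its cell line label (WT9 and WT12), and the titles were used.

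The Cdk1-cyclin B kinase drives the cell into mitosis, and its activity ends when the anaphase-promoting complex (APC/C) marks cyclin B for destruction. In between, Aurora, Polo-like and NEK kinases separate the centrosomes and build the spindle, kinetochores capture microtubules, and the spindle checkpoint holds anaphase back until every chromosome is attached. Transcripts of these genes accumulate together in G2 and M phase, and pluripotent cells, which cycle fast with a short G1 phase, express them at high levels.

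Cell-cycle-dependent genes are known for a pair of short promoter elements, the cell cycle genes homology region (CHR), bound by the MuvB complexes, and the CCAAT box, bound by NF-Y. RefSeq promoters of assembly GRCm38.p6, from 250 bases before to 50 after the transcription start, were found for 33 of the 40 genes (36 promoters), and none was listed for *Pbk*, *Ccna2*, *Cdc25c*, *Aurkb*, *Incenp*, *Tpx2* and *Kif20a*. The letters searched were TTTGAA or TTCGAA for the CHR and CCAAT for the CCAAT box, each on both strands (TTCAAA and ATTGG on the other strand). A CHR was held by 80.6% of the member promoters, against 19.2% of all 32851 promoters in the table. A CCAAT box was held by 80.6% of them against 37.4%, and both by 72.2% against 7.5%. At least 2 CCAAT boxes were held by 58.3% of member promoters and 11.7% of all promoters. The motifs overlapped in 1 member promoter. A match describes these letters in this window and does not show binding.

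The 200 bases before the start are shown for the mitotic kinase gene *Cdk1* and the APC/C activator gene *Cdc20*, which held both motifs there, and for *Ccnb1* and *Spag5*, which differed between the column suffixes. They lie at chr10:69352913-69353112 (reverse strand), chr4:118437344-118437543 (reverse strand), chr13:100786487-100786686 (reverse strand) and chr11:78301391-78301590 (forward strand) of GRCm38.p6, each written 5′ to 3′ along its gene, with the letters of the CHR and of the CCAAT box in capitals.
Cdk1: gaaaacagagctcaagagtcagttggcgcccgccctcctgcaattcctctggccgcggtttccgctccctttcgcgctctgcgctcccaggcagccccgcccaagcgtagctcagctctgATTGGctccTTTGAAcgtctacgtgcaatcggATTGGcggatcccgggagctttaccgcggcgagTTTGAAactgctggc
Cdc20: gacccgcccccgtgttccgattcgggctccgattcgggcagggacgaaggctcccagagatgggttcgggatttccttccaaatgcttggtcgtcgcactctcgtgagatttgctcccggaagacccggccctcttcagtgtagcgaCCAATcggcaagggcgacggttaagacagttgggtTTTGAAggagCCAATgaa
Ccnb1: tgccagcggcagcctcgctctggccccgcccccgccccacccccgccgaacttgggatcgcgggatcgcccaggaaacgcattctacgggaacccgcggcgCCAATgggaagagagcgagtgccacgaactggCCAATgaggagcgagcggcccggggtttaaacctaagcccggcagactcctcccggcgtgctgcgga
Spag5: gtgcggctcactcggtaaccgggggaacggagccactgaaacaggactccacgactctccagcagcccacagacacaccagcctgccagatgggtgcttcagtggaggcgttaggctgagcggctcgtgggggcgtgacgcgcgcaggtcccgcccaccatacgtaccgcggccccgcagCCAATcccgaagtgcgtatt

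In this stretch *Cdk1* held 2 CHR and 2 CCAAT matches and *Cdc20* held 1 CHR and 2 CCAAT matches. *Ccnb1* held 2 CCAAT matches and no CHR anywhere in its window, and *Spag5* held 1 CCAAT match before the start, another across it and a CHR just after it.

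Library totals ran from 13916576 reads in KO25 to 23680839 in WT12, and the libraries held 0 identical columns. *Tet1* was at 38.4 to 54.2 CPM (counts scaled to library size) in KO lines and 559 to 851 CPM in WT lines, as labelled. The pluripotency genes *Pou5f1* (412 to 512 TPM, a level per transcript length) and *Dnmt3b* (218 to 270.4 TPM) were high in every library, and *Dnmt3a* was at 241 to 421 TPM. Other formative and core markers were lower, *Sox2* at 25.2 to 48.2, *Otx2* at 15.3 to 33.6, *Pou3f1* at 11.2 to 39.1 and *Fgf5* at 7.48 to 18.8 TPM. The naive pluripotency markers summed to 13.1 to 35.8 TPM, with *Zfp42* at 8.29 to 19.0 TPM. The 6 primitive endoderm markers summed to 1.78 to 4.34 TPM.

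Per transcript length, the mitotic genes spanned a wide range of levels in EpiLCs, from 6.14 TPM for *Cdc25c* to 229 TPM for *Mad2l1*, with a median of 42.4 TPM. At the top stood *Mad2l1*, the checkpoint protein Mad2, at 229 ± 20.5 TPM (SD over 8 libraries). Below it came *Cdk1* at 177 ± 14.2 TPM, *Ccnb1* at 139 ± 9.26 TPM and *Top2a* at 135 ± 8.38 TPM. The lowest library of *Mad2l1* (203 TPM) was just above the highest of *Cdk1* (202 TPM), while the ranges of *Cdk1* and *Ccnb1* overlapped, as did those of *Ccnb1* and *Top2a*.

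*Pbk* ranked 33 of 40, at 17.6 ± 4.12 TPM. Its range overlapped those of its neighbours in the order, *Kif2c* at 19.5 ± 3.57 TPM and *Cenpe* at 17.4 ± 2.14 TPM. The lowest levels belonged to *Cdc25b* and *Cdc25c*, phosphatases that activate Cdk1, at 6.95 ± 1.28 and 6.14 ± 1.12 TPM. Summed over the 40 genes, the level was 2279 to 2478 TPM in KO lines and 2259 to 2474 TPM in WT lines, so that the genotypes overlapped. In bulk RNA, fewer cells in mitosis and less RNA per mitotic cell cannot be told apart.

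**Figure D1:**
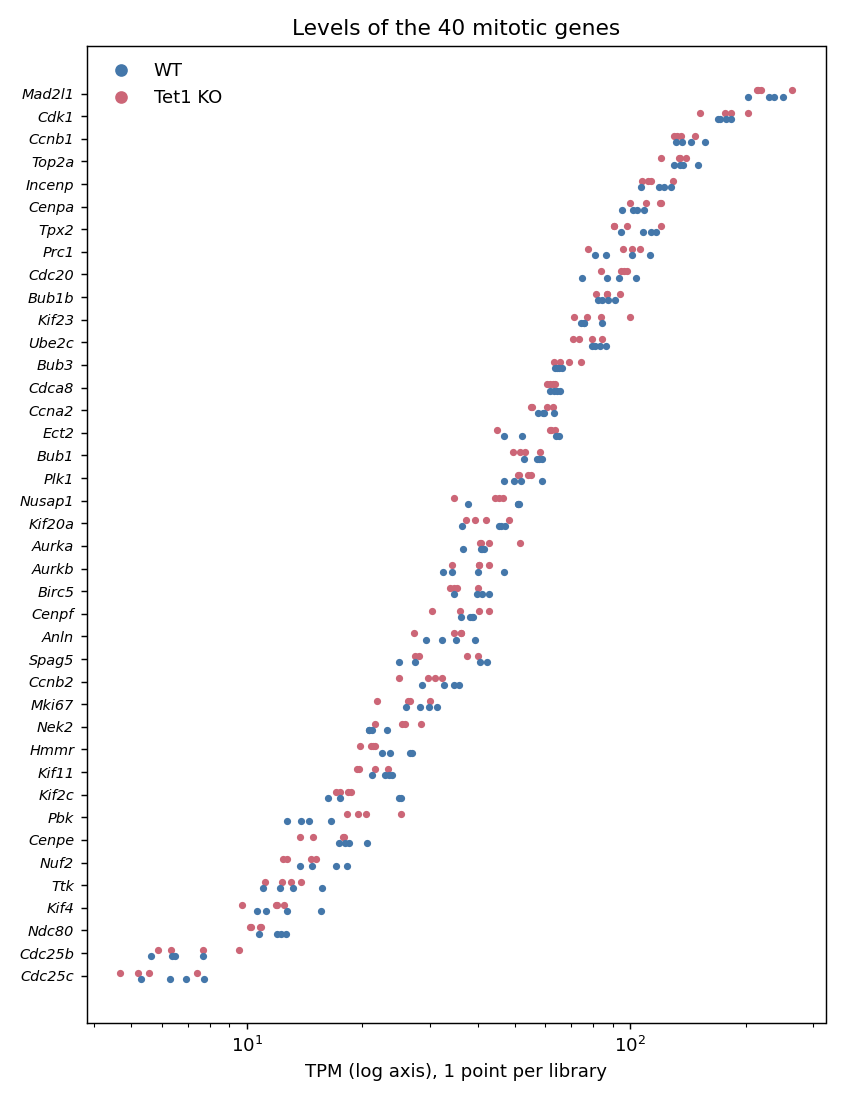
TPM of the 40 mitotic genes on a log axis, with 1 point per library (WT blue, *Tet1* KO red) and genes ordered by their mean. Levels run from 6.14 TPM on average for *Cdc25c* to 229 TPM for *Mad2l1*, and for *Pbk* the red points (18.3 to 25.3 TPM) lie above the blue ones (12.7 to 16.5 TPM).

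*Pbk* encodes a serine/threonine kinase that is active in mitosis and is common in proliferating cells. It lies on mm10 at chr14:65805837-65817822 on the forward strand (ENSMUSG00000022033.9). In WT lines it was at 29.9 in WT7, 30.1 in WT12, 28.4 in WT17 and 30.9 in WT34 (CPM). In KO lines its CPM was 43.8 in KO1, 42.5 in KO9, 44.8 in KO15 and 47.5 in KO25. The 4 KO values were all above the 4 WT values, and the spread within each genotype was small beside the gap.

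Mean levels of *Pbk* were 44.6 ± 2.12 CPM for the KO genotype and 29.8 ± 1.03 CPM for WT (SD, n = 4 each), a ratio of 1.5 and a log2 fold change of 0.58 ± 0.08 (SE, 95% interval 0.39 to 0.77). By edgeR's quasi-likelihood test this did not pass over all genes, with an adjusted p of 0.0909. With the column suffix as a block it passed (log2 fold change 0.58, adjusted p = 0.0133, edgeR), and so it did by DESeq2 (adjusted p = 3.34e-08). Over 30 alternatives the log2 fold change was positive in each, between 0.50 and 0.60, while adjusted p ran from 3.34e-08 to 0.999 and 6 of them passed. Of these 6, only DESeq2 by itself and the block by itself were planned. The rest joined the block with DESeq2 or with a line left out, and were chosen after seeing the data. Within the b1 lines the log2 fold change was 0.57 (edgeR adjusted p = 0.110) and within the b2 lines 0.60 (adjusted p = 0.999), each with 2 lines against 2.

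Per length, *Pbk* was at 19.4 in KO1, 18.3 in KO9, 20.4 in KO15 and 25.3 in KO25 (TPM, KO lines). The WT lines had 14.5 in WT7, 16.5 in WT12, 13.9 in WT17 and 12.7 in WT34 (TPM). The genotypes did not overlap on this scale either, but the gap between WT12 and KO9 was narrow. Among all genes, *Pbk* ranked 10 of 17272 by edgeR's p, and 7.25% of genes had a log2 fold change of at least its size in either direction. Its effective length, the ratio of count to TPM relative to the mean over libraries, varied from 0.882 to 1.11, with KO and WT lines overlapping. With this length as an offset the log2 fold change was 0.56 and edgeR's adjusted p 0.572.

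Of the marker lists, the primitive streak sum also separated the genotypes, at 0.861 to 1.52 TPM in KO and 0.182 to 0.60 TPM in WT lines. Its 3 genes were low, with *T* at most 0.625 TPM, *Eomes* at most 0.801 TPM and *Mixl1* at most 0.222 TPM in any library. Of the 3, 2 were expressed enough to be tested. Neither had every KO line above every WT line by CPM, and neither passed by edgeR or by DESeq2 without the block. Of 5 primitive endoderm markers tested, 1 had every KO line above every WT line by CPM (2.39% of all genes). By DESeq2 1 of these 5 was higher (0.406% of all genes), while the sum of that list overlapped between genotypes. The part of these markers in the *Pbk* difference was not tested.

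**Figure D2:**
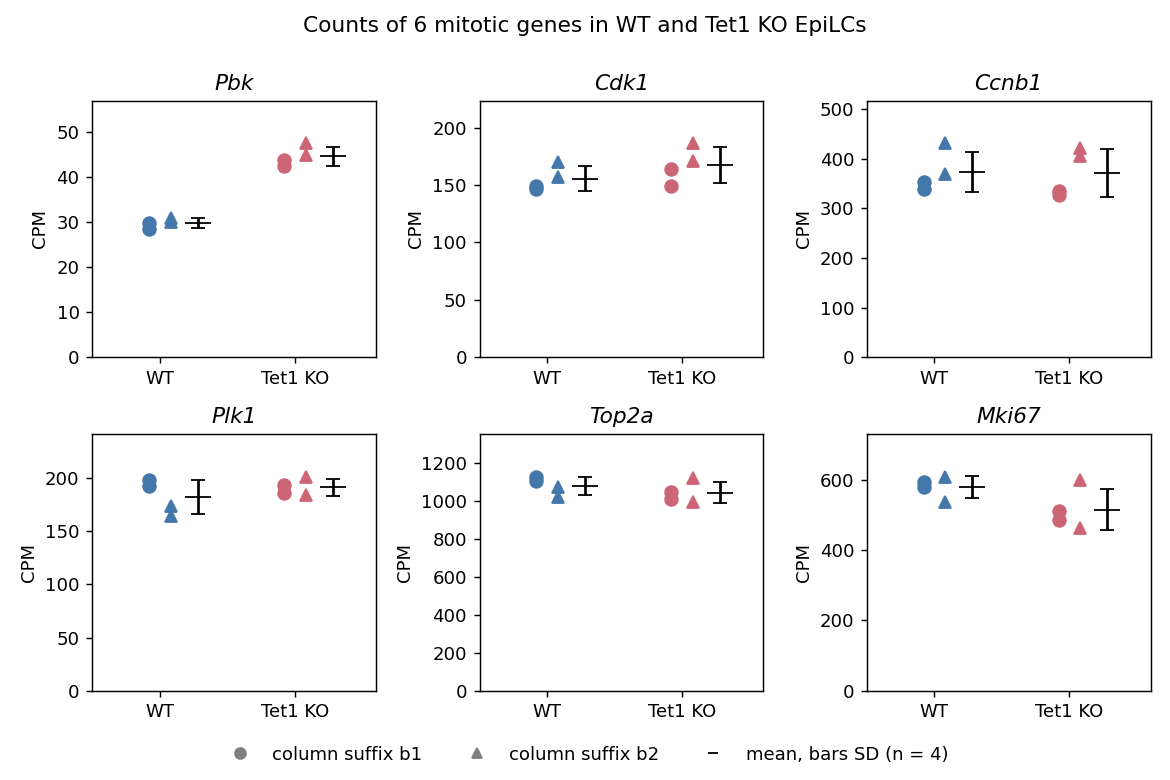
CPM of 6 mitotic genes in the 8 EpiLC libraries, WT lines in blue and *Tet1* KO lines in red, circles for suffix b1 and triangles for b2, with the mean and SD of each genotype (n = 4). For *Pbk* the KO points (42.5 to 47.5 CPM) lie above the WT points (28.4 to 30.9 CPM), and for the other 5 genes the genotypes overlap.

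The other 39 mitotic genes had smaller differences than *Pbk*, in both directions. None of the 40 passed edgeR's test in KO against WT, where 0.0405% of all genes did (0.0289% higher, 0.0116% lower), and 3 had an unadjusted p under 0.05 (*Pbk*, *Hmmr* and *Nuf2*), against 5.62% of all genes. With the suffix as a block 1 of 40 passed, a higher one (0.162% of all genes, with 0.116% higher and 0.0463% lower). By DESeq2 1 of 40 passed, again higher (0.614% of all genes, with 0.406% higher and 0.209% lower), and by DESeq2 with the block 1, higher too (1.90% of all genes, with 1.02% higher and 0.872% lower), and this was *Pbk* each time. Log2 fold changes of the other 39 ran from −0.21 for *Cenpe* to 0.14 for *Nek2*, ratios of 0.867 to 1.10. Their 95% intervals together covered −0.45 to 0.45, so that each of the 39 excluded the 0.58 estimated for *Pbk*, and 37 included 0. The interval of *Pbk* itself overlapped that of *Spag5*, which reached 0.45. Since *Pbk* was named with earlier results known, this contrast is a description only. The median absolute log2 fold change of the 39 was 0.0769 against 0.134 over all genes tested, and the median over the 40 was −0.01 against −0.0044 over all genes. All genes tested include low-expressed ones and were not matched to the members by level, so the absolute medians do not measure stability. The smallest adjusted p of the 39 was 0.856 by edgeR, 0.311 with the block and 0.607 by DESeq2.

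By CPM, all KO lines were above all WT lines for 2 of the 40 genes (2.39% of all genes tested), *Pbk* and *Bub3*. All KO lines were below all WT lines for 1 (1.80%), *Nuf2*. For the remaining genes the genotypes overlapped on this scale. By TPM, *Pbk* stayed above, *Bub3* and *Nuf2* overlapped, and *Hmmr* lay below in all KO lines, at 19.7 to 21.6 TPM against 22.5 to 27.0 TPM in WT lines.

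**Figure D3:**
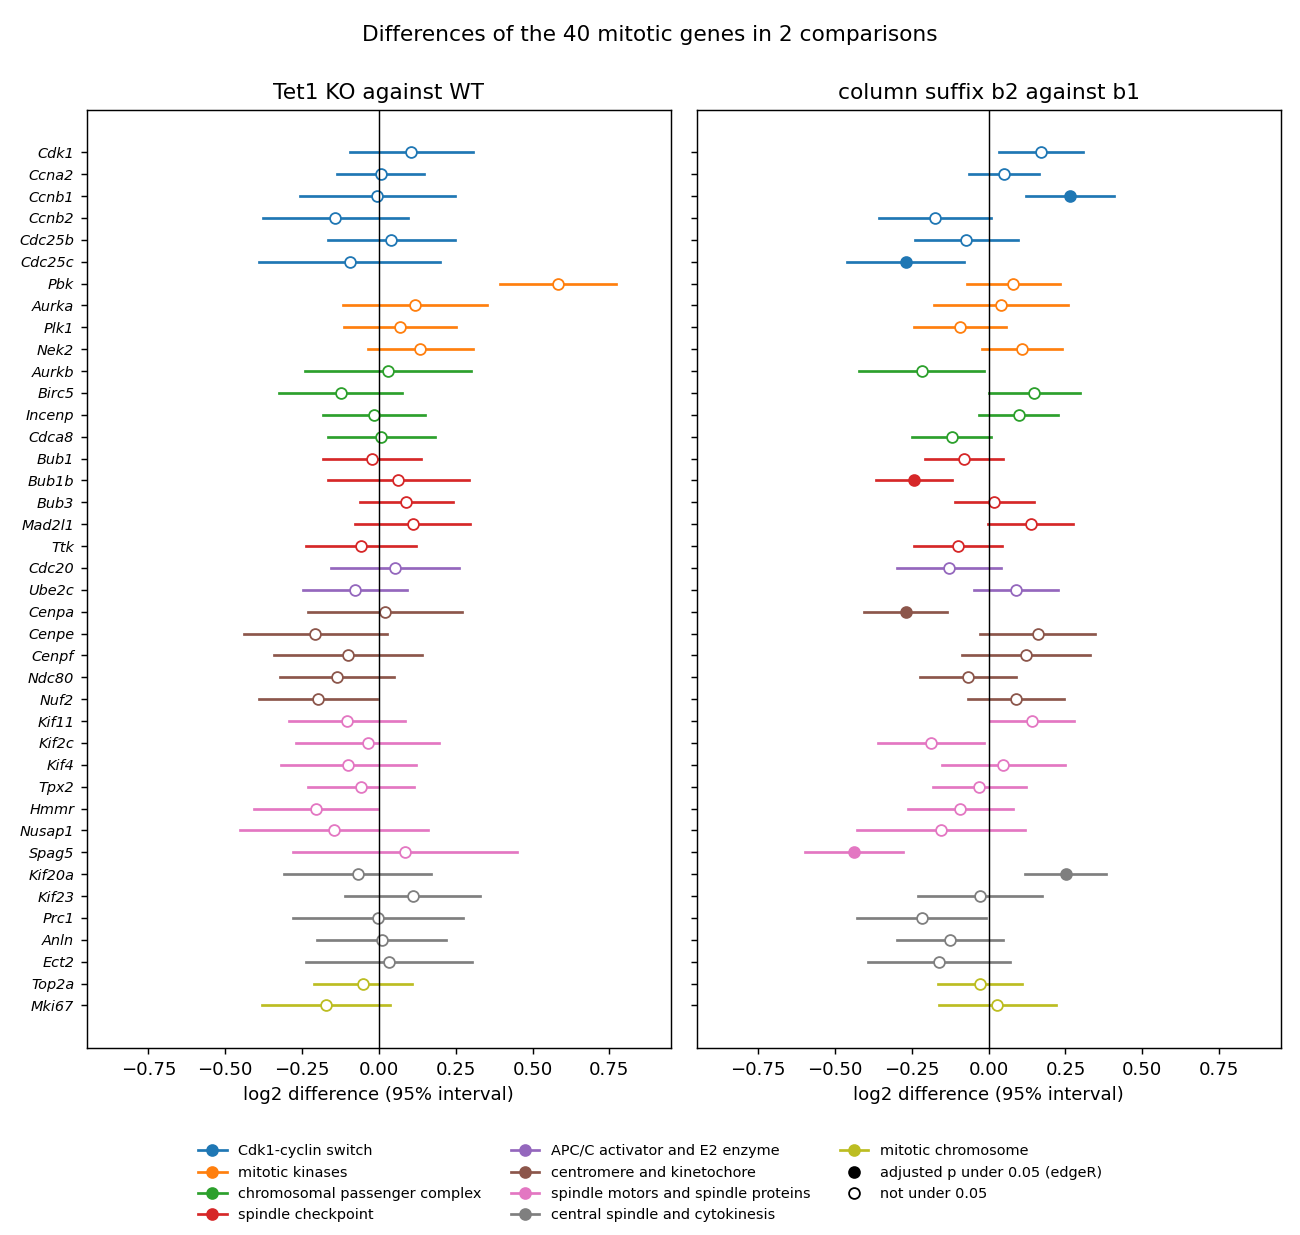
Log2 differences of the 40 mitotic genes with 95% intervals from edgeR, KO against WT on the left and suffix b2 against b1 on the right, coloured by role, with filled points under an adjusted p of 0.05. On the left *Pbk* stands at 0.58 with every other gene between −0.21 and 0.14 and no filled point, and on the right 6 points are filled, between −0.44 and 0.27.

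Among the genes of the Cdk1-cyclin switch, *Cdk1*, the kinase itself, was at 146 in WT7, 157 in WT12, 149 in WT17 and 171 in WT34 (CPM) in WT lines. The KO lines had 164 in KO1, 149 in KO9, 171 in KO15 and 186 in KO25 (CPM). The ranges overlapped, and the log2 fold change was 0.11 (95% interval −0.10 to 0.31). *Ccna2*, the cyclin A of S and G2 phase, had means of 233 ± 9.28 and 232 ± 3.19 CPM in KO and WT lines (SD, n = 4 each), and *Ccnb1*, the cyclin B of mitotic entry, 372 ± 48.0 and 373 ± 40.5 CPM. *Ccnb2*, the other B-type cyclin, had the lowest log2 fold change of this group, −0.14 (95% interval −0.38 to 0.09). The phosphatase genes *Cdc25b* and *Cdc25c* were at 0.04 and −0.09.

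The other mitotic kinases lay nearer to their WT levels than *Pbk*. *Plk1*, which acts at centrosomes, kinetochores and the cleavage site, ranged from 185 to 201 CPM in KO lines and from 164 to 198 CPM in WT lines. *Nek2*, which splits the centrosome pair, had means of 104 ± 5.51 and 94.4 ± 5.31 CPM (SD, n = 4 each) and a log2 fold change of 0.14 (95% interval −0.04 to 0.31), the highest after *Pbk*. *Aurka*, the Aurora kinase of the spindle poles, was at 149 in KO1, 151 in KO9, 148 in KO15 and 192 in KO25 (CPM, KO lines). KO25 stood apart from the other KO lines, and WT lines spanned 134 to 159.5 CPM. Its log2 fold change was 0.12, with −0.02 within b1 and 0.26 within b2.

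In the chromosomal passenger complex, which corrects faulty attachments, the kinase gene *Aurkb* was at 0.03 on the log2 scale, the survivin gene *Birc5* at −0.12, and the scaffold genes *Incenp* and *Cdca8* (borealin) at −0.02 and 0.01. Each interval included 0, and KO and WT lines overlapped for the 4 genes. *Birc5* ranged from 67.4 to 80.1 CPM in KO lines and from 71.3 to 83.3 CPM in WT lines.

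Spindle checkpoint genes ranged in log2 fold change from −0.06 for *Ttk*, the kinase Mps1 that starts the signal, to 0.11 for *Mad2l1*. *Bub3*, which docks Bub1 and BubR1 at kinetochores, was at 135 in WT7, 131 in WT12, 133 in WT17 and 131 in WT34 (CPM, WT lines). In KO lines it was at 137 in KO1, 138 in KO9, 151 in KO15 and 138 in KO25 (CPM). The lowest KO line was 137 and the highest WT line 135 CPM, so the groups were separate by a narrow margin, and the log2 fold change of 0.09 did not pass (edgeR adjusted p = 0.998). *Bub1* and *Bub1b*, the checkpoint kinase gene and that of its relative BubR1, were at −0.02 and 0.06. *Cdc20*, the APC/C activator that the checkpoint restrains, was at 0.05, and *Ube2c*, the E2 enzyme of the APC/C, at −0.08.

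The centromere and kinetochore genes were lower in KO than in WT lines on average for 4 of 5 members, none past the test. *Nuf2*, a subunit of the NDC80 complex that grips microtubules, was at 44.9 in WT7, 47.5 in WT12, 44.2 in WT17 and 43.5 in WT34 (CPM, WT lines). In KO lines it was at 37.7 in KO1, 36.8 in KO9, 42.5 in KO15 and 40.04 in KO25 (CPM). Each KO line was lower than each WT line, and the log2 fold change of −0.20 (95% interval −0.39 to −0.01) had an unadjusted p of 0.0446 and an adjusted p of 0.859 (edgeR). Its partner *Ndc80* was at −0.14. *Cenpa*, the histone H3 variant of centromeres, was at 0.02.

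*Cenpe*, the kinesin of the kinetochore, was at 142 in KO1, 147 in KO9, 168 in KO15 and 194 in KO25 (CPM, KO lines), against 179 to 195 CPM in WT lines. KO25 lay inside the WT range and the other 3 KO lines below it, with a log2 fold change of −0.21 (edgeR adjusted p = 0.936). *Cenpf*, a large protein of the outer kinetochore, was at 268 in KO1, 264 in KO9, 275 in KO15 and 364 in KO25 (CPM, KO lines). Here too KO25 departed, above the WT range of 308 to 318 CPM, and the other KO lines lay below that range.

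Of the 7 spindle genes, *Hmmr*, a microtubule-binding protein of the spindle poles, had the lowest log2 fold change, −0.21 (95% interval −0.40 to −0.01). It was at 223 in WT7, 171 in WT12, 198 in WT17 and 199 in WT34 (CPM, WT lines). In KO lines the CPM was 172 in KO1, 171 in KO9, 164 in KO15 and 179.7 in KO25. The groups overlapped by CPM, since WT12 lay among the KO lines, and edgeR's adjusted p was 0.856. *Kif11* (Eg5), which pushes the poles apart, was at −0.10, the microtubule depolymerase gene *Kif2c* at −0.04, the chromokinesin gene *Kif4* at −0.10 and *Tpx2*, the activator of Aurora A, at −0.06. *Nusap1*, which bundles spindle microtubules, had the widest interval of those below 0 (−0.45 to 0.16), with 129 in KO1, 132 in KO9, 91.3 in KO15 and 146 in KO25 CPM in KO lines. Its lowest library was KO15, and the remaining 3 KO lines lay between 129 and 146 CPM. *Spag5* (astrin), a spindle and kinetochore protein, was at 0.09 (95% interval −0.28 to 0.45).

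Genes of the central spindle and cytokinesis were between −0.07 for *Kif20a*, the kinesin that carries the passenger complex to the central spindle, and 0.11 for *Kif23*, a subunit of centralspindlin. *Prc1*, which crosslinks antiparallel microtubules, *Anln*, the anillin of the contractile ring, and *Ect2*, the activator of RhoA at the cleavage site, had log2 fold changes of −0.0031, 0.01 and 0.03. *Top2a*, the topoisomerase that untangles sister chromatids, had the highest CPM of the 40, 1042 ± 55.3 for KO and 1080.4 ± 47.4 for WT lines (SD, n = 4 each), with a log2 fold change of −0.05. *Mki67*, the proliferation marker Ki-67 that coats mitotic chromosomes, was at 512 in KO1, 484 in KO9, 464 in KO15 and 598 in KO25 (CPM, KO lines) and between 537 and 608 CPM in WT lines. Its log2 fold change of −0.17 did not pass (95% interval −0.38 to 0.04).

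*Pbk* was also set against the rest of the mitotic genes within each library. Its log2 CPM minus the median log2 CPM of the other 39 was −2.32 in WT7, −2.25 in WT12, −2.36 in WT17 and −2.28 in WT34. In KO lines it was −1.69 in KO1, −1.78 in KO9, −1.75 in KO15 and −1.92 in KO25. The 4 KO values lay above the 4 WT values. The median of the other 39 was 7.15 to 7.49 log2 CPM in KO lines, highest in KO25, and 7.17 to 7.23 in WT lines, with the genotypes overlapping. These values describe the libraries, and no test was made of them.

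The genes next to *Pbk* on chromosome 14 were read beside it. The 3 tested genes on each side with the nearest starts were *Elp3*, *Nuggc* and *Scara5* before it and *Esco2*, *Ccdc25* and *Scara3* after it, by GENCODE M21 on mm10. *Esco2*, an acetyltransferase of cohesin, lies at chr14:65819038-65833994 on the opposite strand, does not overlap *Pbk*, and starts 28.2 kb from the start of *Pbk*. Its level was 195 ± 21.4 CPM with KO and 190.4 ± 26.8 CPM with WT genotype (SD, n = 4 each), a log2 fold change of 0.04 (95% interval −0.23 to 0.31). *Ccdc25*, 31.5 kb away, was at 0.06 (95% interval −0.25 to 0.38). Both intervals excluded the log2 fold change of 0.58 of *Pbk*.

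*Elp3*, the catalytic subunit of Elongator, was at 0.05 (95% interval −0.14 to 0.23). The other 3 neighbours were expressed at 0.692 to 2.65 CPM on average in either genotype. The scavenger receptor gene *Scara5* had a log2 fold change of 0.58, the size of that of *Pbk*, with a 95% interval of −0.07 to 1.24 and an adjusted p of 0.932 (edgeR). *Scara3* was at 0.51 (−0.45 to 1.47) and *Nuggc* at −0.04. For these 3 genes the intervals included both 0 and the estimate of *Pbk*, and KO and WT lines overlapped for the 6 neighbours.

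**Figure D4:**
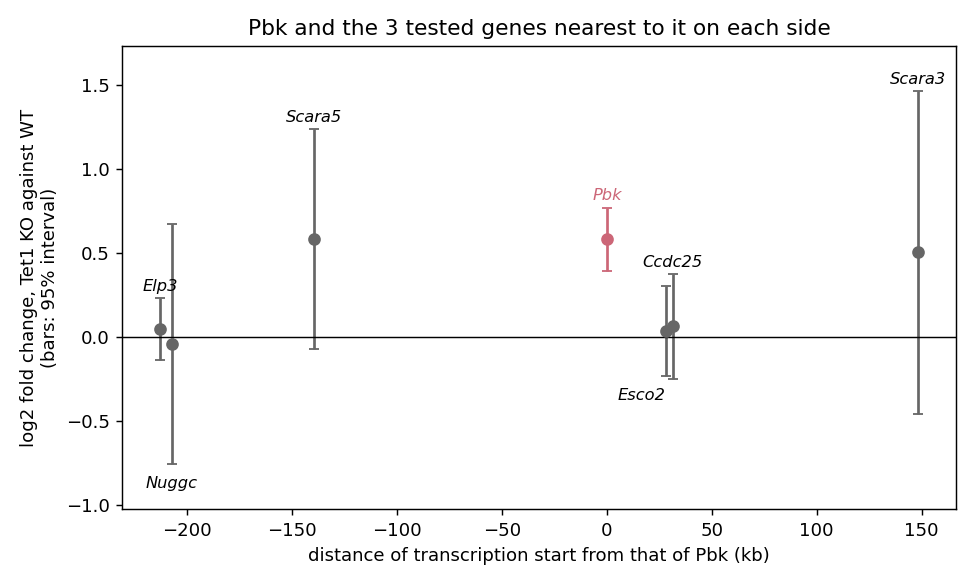
Log2 fold change in KO against WT of *Pbk* (red) and the 3 tested genes on each side (grey), by the distance of their transcription start from that of *Pbk* in kb, with 95% intervals from edgeR. *Pbk* is at 0.58, its near neighbours *Esco2* and *Ccdc25* are at 0.04 and 0.06, and the low-expressed *Nuggc*, *Scara5* and *Scara3* have wide intervals.

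The libraries were also compared by their column suffix, b2 against b1, with genotype in the model. Between the suffixes 6 of the 40 mitotic genes passed edgeR's test, 2 higher and 4 lower in b2, against 24.6% of all genes (13.7% higher, 11.0% lower). With library size alone in place of TMM the calls over all genes turned from 2359 higher and 1894 lower to 1933 higher and 2511 lower, and those of the members to 2 higher and 6 lower. The median over the 40 genes was −0.03 on the log2 scale, against 0.01 over all genes. Every b2 library lay above every b1 library for 2 members (13.9% of all genes) and below for 6 (12.4%) by CPM. Of these 8, *Bub1b*, *Kif2c* and *Spag5* were also separate by TPM. For 27 of the 40 the difference between suffixes was larger in size than that between genotypes. The same count was not made over all genes, so it cannot be read as particular to the members. *Pbk* was not among the 27, at 0.08 (95% interval −0.07 to 0.23, edgeR adjusted p = 0.414).

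*Ccnb1* was at 335 in KO1, 326 in KO9, 339 in WT7 and 352 in WT17 (CPM) in b1 libraries. The b2 libraries had 405 in KO15, 421 in KO25, 369 in WT12 and 431 in WT34 (CPM). All b2 values were above all b1 values, with a log2 difference of 0.27 ± 0.06 (SE, edgeR adjusted p = 0.0147). The difference fell to 0.07 with the length offset (adjusted p = 0.611), and the call was lost without KO1 (0.0521) or KO9 (0.0771). For this gene 12 of 19 alternatives passed, with adjusted p from 0.00306 to 0.611. Its effective length was longer in every b2 than in every b1 library. *Kif20a* rose likewise, from 218 ± 12.2 CPM in b1 to 259.7 ± 12.0 CPM in b2 (SD, n = 4 each), a log2 difference of 0.25 (edgeR adjusted p = 0.0133). Without KO9 it was 0.21 with an adjusted p of 0.0703, and 13 of 19 alternatives passed, with adjusted p from 0.00384 to 0.316.

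Of the 4 genes lower in b2, *Spag5* had the largest difference. Its CPM in b1 libraries was 107 in KO1, 118 in KO9, 114 in WT7 and 107 in WT17. In b2 libraries it was 81.7 in KO15, 93.1 in KO25, 75.6 in WT12 and 80.2 in WT34. The suffixes were separate, with a log2 difference of −0.44 ± 0.07 (SE, edgeR adjusted p = 0.00272), and 18 of 19 alternatives passed, with adjusted p from 2.42e-06 to 0.0845. The alternative that did not pass was the KO lines alone, at −0.37.

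*Bub1b* fell from 288 ± 11.0 CPM in b1 to 244 ± 12.0 CPM in b2 libraries (SD, n = 4 each), a log2 difference of −0.24 (edgeR adjusted p = 0.0123). With the length offset it was −0.11 with an adjusted p of 0.278, and 14 of 19 alternatives passed, with adjusted p from 0.00174 to 0.278. *Cenpa* fell from 133 ± 4.56 to 110.5 ± 5.17 CPM, a log2 difference of −0.27 (adjusted p = 0.0110, edgeR). Under the length offset it was −0.09 (adjusted p = 0.543), and 14 of 19 alternatives passed, with adjusted p from 0.00140 to 0.543. *Cdc25c* went from 22.0 ± 1.6 to 18.2 ± 0.627 CPM, a log2 difference of −0.27 (edgeR adjusted p = 0.0434), and 5 of 19 alternatives passed, with adjusted p from 0.0193 to 0.300. Its call was kept without WT17 and lost without any other line.

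The count of members called moved with single lines, to 3 without KO9 and to 10 without KO25, where *Anln*, *Aurkb*, *Ccnb2*, *Nusap1* and *Prc1* were added on the lower side and *Cdc25c* was lost. With the length offset and by limma on TPM, 1 of the 40 passed, *Spag5*. Totals of b1 libraries lay between 18430028 and 20917851 reads, inside the range of b2 libraries, whose lowest and highest are those of the whole set. Some marker sums moved with the suffix as well. The 7 formative and core pluripotency markers summed to 946 to 1065 TPM in b1 and 1139 to 1224 TPM in b2. The 8 fibroblast markers, of which 5 were tested, *Postn* was listed at 0 in every library and *Thy1* gave most of the sum, added up to 20.0 to 30.1 TPM in b1 and 5.59 to 17.5 TPM in b2. The 5 fibroblast markers tested did not move together, with a median log2 difference of −0.04 and 2 of 5 above 0. By CPM, 1 of the 5 was above in every b2 library (13.9% of all genes) and 1 below (12.4%). The part of the marker lists in the differences between suffixes was not tested.

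**Figure D5:**
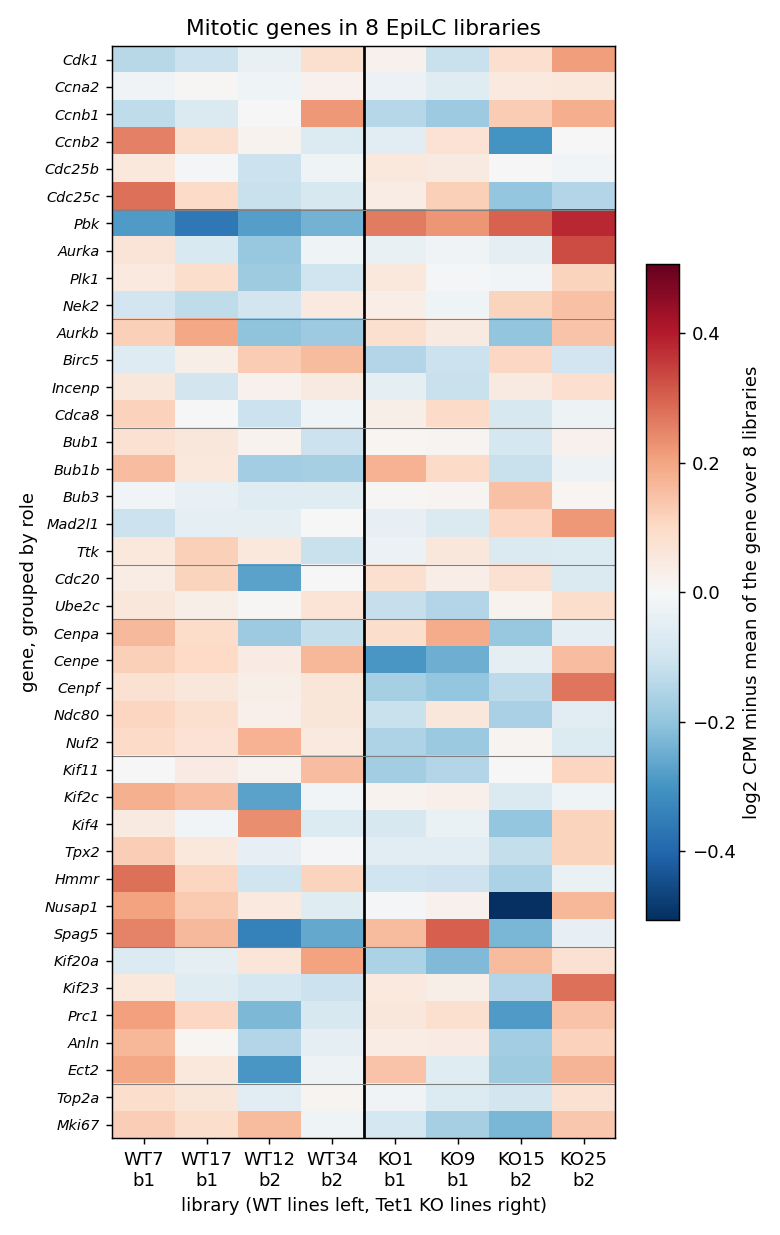
Log2 CPM of each mitotic gene minus its mean over the 8 libraries, with genes in rows by role (thin lines between roles) and libraries in columns, WT lines left and *Tet1* KO lines right of the thick line. The *Pbk* row is blue in the 4 WT and red in the 4 KO libraries, while *Ccnb1*, *Spag5*, *Bub1b* and *Cenpa* follow the suffix under each library name.

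Whether the KO difference itself varied with the suffix was tested by the interaction of both terms. No member passed by edgeR (smallest adjusted p = 1.00) or by DESeq2, and 1 of 40 had an unadjusted p under 0.05, against 1.31% of all genes. That gene was *Cenpe*, with a KO minus WT log2 difference of −0.38 within b1 and −0.04 within b2. For *Pbk* the interaction was 0.03 ± 0.15 on the log2 scale (SE).

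The wider cell cycle machinery was read from 140 further genes in 6 lists, all of them tested. In KO against WT none of the 140 passed by edgeR, with or without the block, or by DESeq2, and 1 passed by DESeq2 with the block, *E2f8* (1.90% of all genes). An unadjusted p under 0.05 in edgeR was seen for 4 of the 140, against 5.62% of all genes. Their median log2 fold change was −0.03. Of 48 other mitotic genes, 15 were above 0, with a median of −0.05, against 8467 of 17272 genes tested above 0. These genes were measured in the same libraries and are not independent, and the count was not tested. The smallest p belonged to *Ckap2*, a microtubule-associated protein, at −0.24, or −0.15 without WT12. For 30 genes of DNA replication and S phase the median was −0.02, with *Orc6*, of the origin recognition complex, at −0.20.

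The list for transcriptional control of mitotic genes had a median of −0.05 over 23 genes. The smallest p among them was that of the repressor gene *E2f8*, at 44.3 ± 5.54 CPM for KO and 57.0 ± 9.40 CPM for WT lines (SD, n = 4 each), with the lines overlapping. Its log2 fold change was −0.36 and edgeR's adjusted p 0.802. By DESeq2 with the suffix as a block it passed, at −0.36 (adjusted p = 0.0189), as the only one of 30 alternatives, over which adjusted p ran from 0.0189 to 1.00.

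*Fbxo5* (Emi1), the inhibitor of the APC/C, was at 70.4 ± 3.07 CPM for KO and 82.9 ± 8.88 CPM for WT lines (SD, n = 4 each), with every KO line below every WT line by CPM. This held for 2 of the 140 genes, *Fbxo5* and *Lin37*, against 1.80% of all genes. For 0 of the 140 every KO line was above every WT line (2.39% of all genes). The log2 fold change of *Fbxo5* was −0.24 (edgeR adjusted p = 0.810), and −0.16 without WT34. *Ccnd2*, a D-type cyclin, was at 12.0 ± 5.60 CPM for KO and 5.89 ± 2.38 CPM for WT lines (SD, n = 4 each), with the lines overlapping, and its log2 fold change turned from 1.01 to −0.27 with the length offset. Among 15 CDK inhibitors and p53 targets the smallest p was that of the antiproliferative gene *Btg2*, at −0.74 (edgeR adjusted p = 0.856). This value rested on WT12, at 68.8 CPM against 26.1 to 29.2 CPM in the other WT lines, and without it the log2 fold change was −0.28.

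Between the suffixes 44 of the 140 passed (31.4%), 30 higher and 14 lower in b2, against 24.6% of all genes (13.7% higher, 11.0% lower). With library size alone the 44 were 25 higher and 19 lower, with the length offset 28 passed, by limma on log2(TPM + 1) 19 passed, and with each line left out 29 (without KO9 or WT7) to 47 passed. The KO lines alone gave 11 and the WT lines alone 5. These counts describe the lists, and no test set them against all genes.

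The other mitotic genes were split, with 8 higher and 8 lower of 48, against 13.7% and 11.0% of all genes, and a median of −0.02. *Mis12*, a core kinetochore protein, was at 1.06 (edgeR adjusted p = 2.28e-04), the condensin gene *Smc2* at 0.35 (edgeR adjusted p = 0.00164) and *Espl1* (separase) at −0.43 (edgeR adjusted p = 8.95e-04). For DNA replication and S phase 8 of 30 were higher and 1 lower (30.0% called), against 13.7% and 11.0% of all genes. With library size alone these were 5 and 1, and 2 to 6 were called when any line but KO25 or WT12 was left out. *Fen1*, the flap endonuclease, was among those higher, at 0.59 (edgeR adjusted p = 0.00162). The transcriptional regulators had 8 higher and 1 lower of 23 (39.1% called), against 13.7% and 11.0% of all genes. With library size alone these were 8 and 3, and with the length offset 4 and 1. *E2f3* was at 1.08 (edgeR adjusted p = 1.23e-04) and *Lin9*, a MuvB subunit, at 0.57 (edgeR adjusted p = 0.00204).

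Beside the remaining lists stand the same shares of all genes, 13.7% higher and 11.0% lower in b2. Of 8 G1 cyclins and kinases 2 were higher, *Ccne2* at 1.35 (edgeR adjusted p = 6.28e-05) and *Ccnd1* at 0.75 (edgeR adjusted p = 0.00625), and 1 lower, *Cdk2* at −0.33 (edgeR adjusted p = 0.00516). By limma on log2(TPM + 1) *Ccnd1* was at 0.23 and *Cdk2* at −0.13, and neither passed. The APC/C list had 1 higher and 2 lower of 16 (18.8% called). The CDK inhibitors and p53 targets had 3 higher and 1 lower of 15 (26.7% called), *Mdm2* at 0.55 (edgeR adjusted p = 0.00232) and *Cdkn1b* (p27) at −0.93 (edgeR adjusted p = 0.00323) among them, and 6 higher and 1 lower by DESeq2 or without WT34.

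By a symbol or synonym of the gene name followed by -ps, RefSeq names a pseudogene copy for 4 of the 40, *Ccnb1*, *Ccnb2*, *Aurkb* and *Kif4*. Reads may be shared with these copies, and the counts of the 4 genes are to that extent uncertain. None of the 4 copies was found among the 54281 genes by Entrez identifier, and a row without that identifier would have been missed. Copies under other names and related genes were not searched, so *Pbk* and the rest cannot be said to lack a copy.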

How the data were processed

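RNA-seq libraries of 4 *Tet1* KO and 4 WT EpiLC lines were prepared with a stranded poly(A) kit and sequenced as single-end reads. Trim Galore 0.6.4 was used by the authors for trimming and Salmon 0.14.1 for quantification of transcripts, which were then summed per gene in R 4.0.2, with mm10 named in the submitters' processing notes. The deposited tables hold estimated counts per gene, which are not scaled to depth, and TPM, which the authors' pipeline scales to effective transcript length and to a fixed total per library. Salmon divides reads between similar transcripts by estimation, so the counts of genes with close copies are less certain, and a shift in effective length moves counts and TPM apart.

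Estimated counts were rounded to whole numbers (27.8% of values changed). Of 54281 genes, 17272 passed filterByExpr by genotype. Libraries were scaled by TMM, and the quasi-likelihood test of edgeR 4.0.16 (R 4.3.3) was fitted with genotype alone for KO against WT, with genotype and column suffix for b2 against b1, and with their interaction. P-values were adjusted over all genes by Benjamini-Hochberg, with a threshold of 0.05, and the script was tested on simulated data. CPM are scaled by TMM. Alternatives were DESeq2 size factors, library size alone, no filter, at least 10 counts in every library, DESeq2 1.42.0, a length offset from counts and TPM, limma 3.58.1 on log2(TPM + 1) and log2(TPM + 0.1) for genes with a mean of at least 1 TPM, each line left out, the suffix as a block, and each suffix or genotype alone. Those that join the block with DESeq2, with the length offset, with limma or with a line left out, and the refits of the pathway lists, were chosen after seeing the data. Library depth was 13916576 to 23680839 reads, and the lowest member count was 247.

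Positions come from GENCODE M21 on mm10, a release other than that of the quantification (16925 of the gene IDs tested matched with version), and promoters from RefSeq on GRCm38.p6. The text names all 40 members, up to 3 genes with the smallest p per list and comparison, the 6 neighbours of *Pbk* and *Tet1*. The members and lists were chosen, and *Pbk* was named, with earlier results of these data known. Each line is a separate ESC line with 1 library, so n counts lines. There are no columns of the authors' own comparisons in these tables, and 0 per-sample columns were left out.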

Additional observations from a re-analysis of the deposited data

Results flagged for a closer look

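In 4 of the 80 groups of 4 lines (40 genes in each genotype), 1 library stood far from the other 3 by Dixon's criterion. Chance flags about 1 in 20 groups, or 4 here. *Aurka* was at 192 CPM in KO25, with the other KO lines at 148 to 151 CPM. *Cenpf* was at 364 CPM in KO25, with the other KO lines at 264 to 275 CPM. *Bub1* was at 198 CPM in KO15, below the 212 to 214 CPM of the other KO lines. *Bub3* was at 151 CPM in KO15, with the other KO lines at 137 to 138 CPM. None of the 4 concerns *Pbk*, and each rests on a single KO library.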

How the results depend on the processing

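In KO against WT the number of members called was 0 by edgeR and 1, *Pbk*, by DESeq2, with the suffix as a block, and by DESeq2 with the block, where its log2 fold change was 0.58 in each. With the block and 1 line left out in turn, *Pbk* had log2 fold changes of 0.56 to 0.60 and 0 to 1 members were called, *Pbk* without KO15 (0.60), WT12 (0.57) or WT34 (0.59). Between suffixes the 6 members called became 1 with the length offset, 1 by limma with either pseudocount, 0 in KO lines alone and 1 in WT lines alone, and 3 to 10 when lines were left out in turn. The median b2 minus b1 difference of the members was −0.11 in WT lines alone against −0.03 in all lines. Leaving out *Pbk* in KO against WT, there were 1930 refits of single members. Of these, 1883 kept their direction where called and their side of the threshold, 38 lost a call, 9 gained one and 0 turned a called direction. For *Pbk* in KO against WT, 6 of 30 refits gained a call, of which only DESeq2 and the block, each by itself, were planned before seeing the data. The cause of these changes was not tested. The paper describes littermate pairs of KO and WT lines. Neither it nor the labels say which KO line (1, 9, 15 and 25) is the littermate of which WT line (7, 12, 17 and 34). No paired analysis was therefore possible, and any pairing was ignored. With 4 lines per genotype, the median standard error of a member's log2 fold change was 0.09, which limits the differences that could be seen.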

Other observations

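The ratio of count to TPM gives each gene's effective transcript length in a library, which follows the mix of its transcripts. Relative to its mean, this length varied at least 1.2-fold between libraries for 14 of the 40 mitotic genes, with a median ratio of highest to lowest of 1.17. It did not separate KO from WT lines for any member. It was longer in every b2 than in every b1 library for *Ccnb1*, and shorter for 3 members, the checkpoint gene *Bub1b*, the kinetochore gene *Ndc80* and the centralspindlin gene *Kif23*. The same counts were not made over all genes, so these cannot be read as a trait of the mitotic genes.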
